A study of Mus musculus with 7 samples.

Results

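The 9 genes described here encode adhesion, junction, polarity and ankyrin proteins that are known from the wall of the brain ventricles: Cdh2, Vcam1, Ctnnb1, Tjp1, Mpdz, Numbl, Ccdc88c, Ank2 and Ank3. They were chosen by name, by their symbol in the first column of the 7 count tables, and all 9 were found among 32531 symbols. RNA came from dissected tissue around the brain ventricles. All mice were adults of line ES2575 (Dcdc2a-TRAP). In translating ribosome affinity purification (TRAP) a transgene puts an EGFP-tagged ribosomal protein, Rpl10a, into chosen cells, here those in which Dcdc2a is active, and ribosomes with the tag are pulled out with antibodies to EGFP. The immunopurified group (IP) holds ribosome-bound RNA in 3 libraries, numbered 1, 3 and 4 (an IP numbered 2 is not analysed here). The other group (Input) holds total RNA of the homogenate in 4 libraries, numbered 1 to 4. No wild-type or untagged group is used here, and both groups carry the transgene. The labels do not say whether a library is 1 animal or a pool, nor the exact age, so p-values measure the spread between these libraries, which may be technical.

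Ependymal cells form a single ciliated layer between the brain and the cerebrospinal fluid. They are held together by adherens junctions, in which cadherins of neighbouring cells bind each other and are tied to the actin skeleton by catenins, and scaffold proteins with PDZ domains gather junction and polarity complexes below the apical surface. Ankyrins link membrane proteins to spectrin on the inner face of the lateral membrane, and loss of several of these proteins in mice is known to leave gaps in the ventricular wall or to cause hydrocephalus.

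Counts assigned to genes ranged from 37203427 to 52175180 per library, and each of the 9 genes had at least 357 counts in every library, so counting error was small beside the spread between libraries. IP 1 stood apart from the other IP libraries. Over all tested genes its log2 CPM correlated less with IP 3 and IP 4 (0.823 and 0.852) than with the Inputs (0.891 to 0.895). The correlation of IP 3 with IP 4 was 0.935. The 12 ependymal markers summed to 260 CPM (counts scaled to library size) in IP 1, 3898 in IP 3 and 3164 in IP 4, against 33.9 to 60.4 in the Inputs. Dcdc2a, the gene whose control elements drive the tag, had 43.6 CPM in IP 1, within the Input range of 27.7 to 73.9, and 411 and 175 CPM in IP 3 and IP 4. Foxj1, the transcription factor of motile cilia, had 32.2, 345 and 427 CPM in IPs 1, 3 and 4 and at most 13.0 in the Inputs. The results below are therefore also given without IP 1.

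The sequences before the transcription start are shown for a junction gene (Tjp1) and an ankyrin (Ank2) that were both highest in IP 1, beside that of Numbl, the only gene of the 9 whose fitted difference was negative. Each is the 250 bases before a RefSeq start (GRCm38.p6), 5′ to 3′ on the gene's strand. Capitals mark the GC box GGGCGG, the element bound by Sp1-like factors, or its reverse complement CCGCCC.
Tjp1, chr7:65371245-65371494, minus strand: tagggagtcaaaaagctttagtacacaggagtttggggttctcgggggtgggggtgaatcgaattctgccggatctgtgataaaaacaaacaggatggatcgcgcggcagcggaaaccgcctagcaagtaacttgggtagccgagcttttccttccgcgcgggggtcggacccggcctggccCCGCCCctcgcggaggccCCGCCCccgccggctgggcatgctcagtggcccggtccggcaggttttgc
Ank2, chr3:127499116-127499365, minus strand: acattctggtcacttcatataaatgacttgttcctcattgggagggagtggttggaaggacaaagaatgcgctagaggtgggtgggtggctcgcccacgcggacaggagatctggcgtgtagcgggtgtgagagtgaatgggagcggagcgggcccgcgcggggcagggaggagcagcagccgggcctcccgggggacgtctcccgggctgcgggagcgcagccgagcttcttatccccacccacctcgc
Numbl, chr7:27258511-27258760, plus strand: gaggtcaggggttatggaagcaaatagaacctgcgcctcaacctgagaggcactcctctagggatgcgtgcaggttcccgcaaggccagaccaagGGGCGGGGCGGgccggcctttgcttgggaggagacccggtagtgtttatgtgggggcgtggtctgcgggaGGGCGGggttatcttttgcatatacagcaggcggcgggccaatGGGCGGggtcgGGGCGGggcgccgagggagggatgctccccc
The Tjp1 window held 2 GC boxes, both as the reverse complement, the Numbl window 5 in the forward direction, of which the first and second overlap, and the Ank2 window 0. Of 32536 different windows of the same length before RefSeq starts, 32.97% held at least 1. The half-site of the X-box, the element of the RFX factors of ciliated cells (GTTGCC or GGCAAC), was found in 10.31% of these windows and in 0 of the 3 shown. The table held 8 starts of 4 of the 9 genes, and the others (Cdh2, Vcam1, Mpdz, Ccdc88c and Ank3) had no entry. Ctnnb1, also highest in IP 1, has entries that are not shown. Its overlapping windows held 3 and 2 GC boxes, with 74.8% and 74.4% G and C. All 3 windows shown were rich in G and C, at 63.2% in Tjp1, 64.4% in Ank2 and 66.0% in Numbl, against a median of 52.4% over all windows. Ank2 has several RefSeq starts, and the window shown was the richest of them. Those not shown had 49.6%, 55.2% and 44.8%.

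None of the 9 genes passed the test between IP and Input. By the quasi-likelihood test of edgeR, with p adjusted by Benjamini-Hochberg over 17375 genes, 0 were higher and 0 lower at an adjusted p under 0.05, where 3.64% of all tested genes were called higher and 2.16% lower. DESeq2 and limma voom also called 0 of the 9. At an unadjusted p under 0.05 edgeR had 7 of the 9 higher (all but Cdh2 and Numbl) and 0 lower, against 13.3% and 9.4% of all tested genes. The fitted log2 fold (IP minus Input) was positive for 8 of the 9, with a median of 0.72, whereas 9224 of the 17375 tested genes were positive and their median was 0.06. Without IP 1 the same 8 genes were positive, with a median of 0.31, against -0.041 over 18049 genes. Every IP was above every Input for 3 of them (Ctnnb1, Tjp1 and Mpdz), which 9.55% of all tested genes also showed, and below every Input for 0 of them (10.4% of all). In bulk RNA, fewer cells of a type and less RNA per cell cannot be told apart. The 9 genes fell into different patterns over the libraries, and these are described by the role of the protein.

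**Figure D1:**
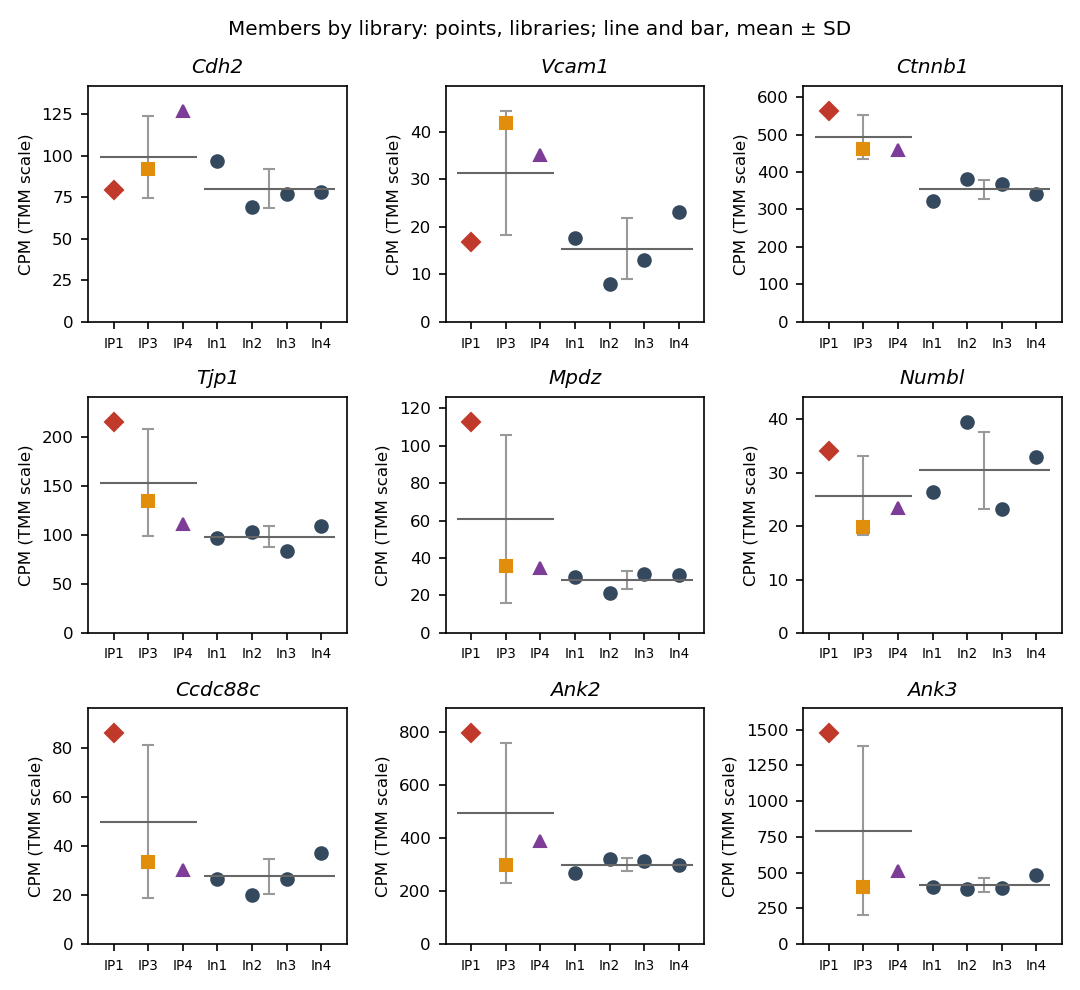
CPM (TMM scale, axes from 0) of each of the 9 genes in the 3 IP libraries (diamond IP 1, square IP 3, triangle IP 4) and the 4 Inputs (circles); lines and bars are group means ± SD. Mpdz, Ccdc88c, Ank2 and Ank3 are by far highest in IP 1 (Ank3 1475 CPM, against at most 508 elsewhere), whereas Vcam1 is low there (16.7 CPM) and high in IP 3 and IP 4.

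The adhesion molecules of the cell surface, Cdh2 and Vcam1, were not raised in IP 1. Cdh2 encodes N-cadherin, the classical cadherin of neural and ependymal adherens junctions (ENSMUSG00000024304.14, on chromosome 18). It had 79.6, 91.9 and 127 CPM in IPs 1, 3 and 4, and 97.2, 69.1, 77.0 and 78.2 in Inputs 1 to 4. Only IP 4 lay above all Inputs, and the other IP libraries lay among them. The means were 99.4 ± 24.6 (SD, n = 3) and 80.3 ± 11.9 CPM (SD, n = 4), a log2 fold of 0.31 ± 0.22 (SE, adjusted p by edgeR = 0.466), and without IP 1 it was 0.44 (adjusted p by edgeR = 0.128). Vcam1 encodes a membrane protein that binds integrins, known from inflamed endothelium and from the apical end of neural stem cells at the ventricle (ENSMUSG00000027962.14, chromosome 3, 116109949 to 116129688, minus strand). It had 16.7 CPM in IP 1, 42.0 in IP 3 and 35.1 in IP 4, against 17.6, 7.98, 13.05 and 23.1 in the Inputs. IP 3 and IP 4 were above all Inputs and IP 1 lay within their range. The means of 31.3 ± 13.1 and 15.4 ± 6.46 CPM gave a log2 fold of 1.02 ± 0.42 (SE), which did not pass (adjusted p by edgeR = 0.179). Without IP 1, Vcam1 was the only 1 of the 9 genes that was called, with a log2 fold of 1.32 (adjusted p by edgeR = 0.0148), where 12.5% of all tested genes were called higher.

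The sums of several marker lists had the same order over the IP libraries as Vcam1, lowest in IP 1 and highest in IP 3: those of ependymal cells, of endothelium, and of mural cells and fibroblasts. The summed level of the 13 mural and fibroblast markers was 107 CPM in IP 1, 1426 in IP 3 and 689 in IP 4, against 41.3 to 95.6 in the Inputs, and none of these markers was at 0 throughout. Of the 13, 7 rose in IP (Dcn, Acta2, Vtn, Col1a2, Lum, Col1a1 and Tagln); with the replicate block 1 of them (Col1a2) was called, and by voom 0. The 12 endothelial markers summed to 19.0, 38.3 and 26.1 CPM in IPs 1, 3 and 4 and to 22.7 to 32.4 in the Inputs. The order of this sum was not that of its 2 markers with the highest mean CPM. Slco1a4 (6.59, 4.76 and 5.71 CPM) and Egfl7 (3.18, 1.76 and 1.42) were highest in IP 1. The median log2 ratios of the 12 to the Input of the same number were -0.75, -0.45 and 0.26. The 11 markers of progenitors and neuroblasts summed to 152, 205 and 212 CPM against 193 to 230. The part of these cells in the Vcam1 level was not tested.

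Ctnnb1 encodes beta-catenin, which ties cadherins to alpha-catenin and also carries canonical Wnt signals to the nucleus (ENSMUSG00000006932.17, chromosome 9, 120929216 to 120960507, plus strand). Its CPM was 562, 463 and 459 in the IP libraries and 324, 382, 367 and 341 in the Inputs. The groups did not overlap, and IP 3 and IP 4 were almost level. The means were 494 ± 58.6 and 354 ± 26.0 CPM, a log2 fold of 0.48 ± 0.17 (SE, adjusted p by edgeR = 0.121), and leaving out IP 1 gave 0.38 (adjusted p by edgeR = 0.0615). Of the 9 genes Ctnnb1 had the smallest unadjusted p, 0.0157, and its log2 ratios within a number had the narrowest range (0.33 to 0.80). Of its exon bases 15.1% lie in another gene model, mainly Ulk4 on the other strand, and whether the counting used strand is not known here. Reads that fit more than 1 gene were left out of the gene counts. Of all counts of a library, those assigned to no gene included, they made up 1.51% to 2.01% in IP and 9.33% to 12.9% in Input. Their part in the Ctnnb1 difference was not tested.

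The junction scaffolds Tjp1 and Mpdz were above every Input in all IP libraries, though by a narrow margin for Tjp1 in IP 4 and for Mpdz in IP 3 and IP 4. Tjp1 encodes ZO-1, the PDZ scaffold of tight and adherens junctions (ENSMUSG00000030516.14, chromosome 7, 65296165 to 65527781, minus strand). It had 215 CPM in IP 1, 135 in IP 3 and 111 in IP 4, and 97.2, 103, 83.5 and 109 in the Inputs. IP 4 exceeded the highest Input by little, so that the group means of 154 ± 54.5 and 98.03 ± 10.8 CPM owe most of their distance to IP 1. The log2 fold was 0.65 ± 0.24 (SE, adjusted p by edgeR = 0.145), and 0.32 without IP 1 (adjusted p by edgeR = 0.216). Mpdz encodes MUPP1, a scaffold with many PDZ domains whose loss in mice is known to cause hydrocephalus (ENSMUSG00000028402.18, chromosome 4, 81278500 to 81442815, minus strand). It had 112 CPM in IP 1, 35.5 in IP 3 and 34.7 in IP 4, against 29.7, 21.3, 31.5 and 30.7 in the Inputs. IP 1 was thus far above every other library, while IP 3 and IP 4 were just over the highest Input. The log2 fold of 1.11 ± 0.41 (SE) was the largest of the 9 and did not pass (adjusted p by edgeR = 0.139), and it was 0.31 without IP 1 (adjusted p by edgeR = 0.437).

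The adaptors Numbl and Ccdc88c differed from each other. Numbl encodes Numb-like, an endocytic adaptor that acts with Numb in cell polarity and Notch signalling and is known to be needed for an intact ventricular wall (ENSMUSG00000063160.12, chromosome 7, 27258433 to 27282144, plus strand). Its CPM was 34.0, 19.8 and 23.4 in IPs 1, 3 and 4, and 26.3, 39.5, 23.3 and 32.9 in the Inputs. The groups overlapped widely, and only IP 3 fell below all Inputs. The log2 fold was -0.24 ± 0.30 (SE, adjusted p by edgeR = 0.691), and -0.50 without IP 1 (adjusted p by edgeR = 0.247). Ccdc88c encodes Daple, a Dishevelled-binding protein whose loss is known to cause hydrocephalus (ENSMUSG00000021182.16, chromosome 12, 100911523 to 101029056, minus strand). It had 85.9 CPM in IP 1, 33.5 in IP 3 and 30.1 in IP 4, against 26.6, 20.005, 26.3 and 37.0 in the Inputs. IP 3 and IP 4 lay below Input 4, and IP 1 was more than 2-fold above it. The log2 fold was 0.86 ± 0.38 (SE, adjusted p by edgeR = 0.217), and 0.21 without IP 1 (adjusted p by edgeR = 0.657).

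The ankyrins had the highest CPM values in IP 1 and Input-like values in IP 3. Ank2 encodes ankyrin B (ENSMUSG00000032826.17, chromosome 3, 126921612 to 127499350, minus strand), and Ank3 encodes ankyrin G, known from the lateral membrane of ependymal cells and from the axon initial segment of neurons (ENSMUSG00000069601.14, chromosome 10, 69398773 to 70027438, plus strand). Ank2 had 794, 298 and 389 CPM in IPs 1, 3 and 4, and 266, 322, 312 and 296 in the Inputs. IP 3 lay within the Input range and IP 4 above it. The means were 493 ± 264 and 299 ± 24.1 CPM (log2 fold 0.72 ± 0.30 SE, adjusted p by edgeR = 0.179), and without IP 1 the fold was 0.20 (adjusted p by edgeR = 0.403). Ank3 had 1475 CPM in IP 1, 395 in IP 3 and 508 in IP 4, against 397, 383, 393 and 485 in the Inputs. As for Ank2, IP 3 lay within the Input range and IP 4 just above the highest Input. The means of 793 ± 594 and 415 ± 47.6 CPM gave a log2 fold of 0.94 ± 0.39 (SE, adjusted p by edgeR = 0.193), and leaving out IP 1 brought it to 0.12 (adjusted p by edgeR = 0.633).

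The replicate numbers place an IP and an Input on the same sequencing lane, so the genes were also compared within each number, on log2 CPM with a prior count of 2. In number 1, 5 of the 9 genes were at least 2-fold higher in IP: Ank3 (3.72-fold), Mpdz (3.79-fold), Ccdc88c (3.22-fold), Ank2 (2.98-fold) and Tjp1 (2.21-fold). Of all tested genes 19.4% were. In number 3 only Vcam1 was (3.21-fold; 20.1% of all genes), and in number 4 none of the 9 (18.8% of all genes). The order of the genes thus differed between the numbers. Vcam1 had 0.952-fold its Input in number 1, 3.21-fold in number 3 and 1.52-fold in number 4. Mpdz had 1.13-fold in number 3 and 1.13-fold in number 4, and Ank3 1.01-fold and 1.05-fold. Ctnnb1 was above its Input in each number, by 1.74-fold, 1.26-fold and 1.34-fold, and so was Tjp1, which had 1.61-fold in number 3 and 1.02-fold in number 4. With the replicate number as a block over these 6 libraries, edgeR called 0 of the 9 genes, with log2 folds from -0.12 (Numbl) to 0.74 (Mpdz).

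**Figure D2:**
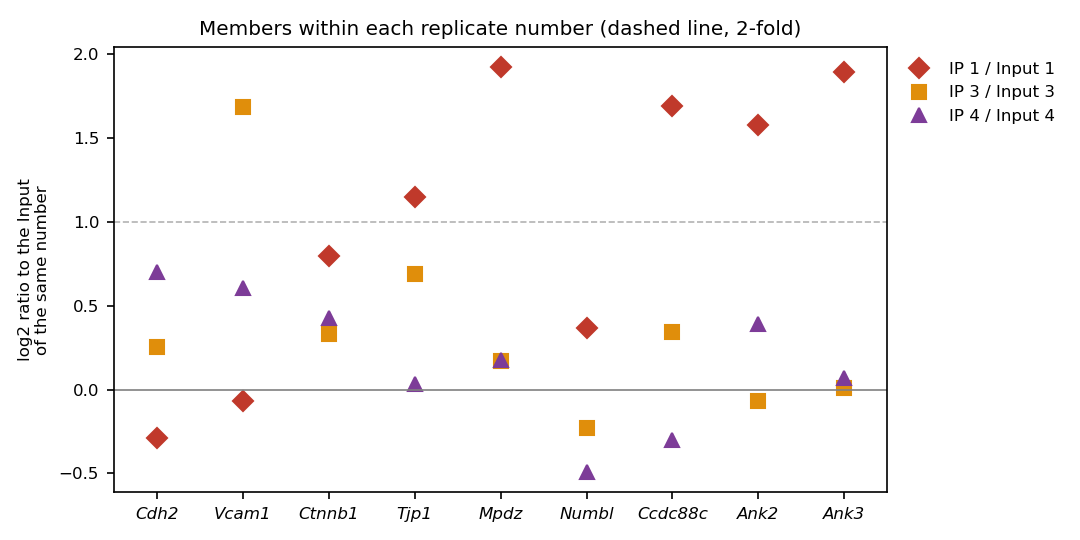
Log2 ratio of IPs 1, 3 and 4 to the Input of the same number for each of the 9 genes; the dashed line marks 2-fold. Mpdz, Ccdc88c, Ank2, Ank3 and Tjp1 lie above it in number 1 only, and Vcam1 in number 3 only.

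The 5 genes that were high in IP 1 include the 4 with the longest exon length, and IP 1 differed from the other libraries by length over all genes. Among 15156 tested genes with a length in GENCODE M21, the median log2 ratio of IP 1 to Input 1 was -0.39 for 2169 genes of up to 2 kb, 0.14 for 4913 genes of 5 to 10 kb, 0.27 for 1026 genes of 10 to 15 kb and 0.45 for 397 genes over 15 kb. The same medians ran the other way in IP 3, from 0.10 to -0.27, and fell to -0.22 for the longest genes in IP 4. Ank2 and Ank3 (35.004 and 34.8 kb of exons) had log2 ratios of 1.57 and 1.89 in IP 1, and Mpdz and Ccdc88c (12.4 and 11.4 kb) 1.92 and 1.69, each above the median of its length class. Of the genes over 15 kb 32.0% were at least 2-fold higher in IP 1, and 22.4% of those of 10 to 15 kb. Tjp1, at 7.81 kb, had 1.14, whereas Vcam1 (8.87 kb), Numbl (8.67 kb) and Cdh2 (8.07 kb) had -0.07, 0.37 and -0.29. Reads that fell in no gene made up 18.4% of all counts in IP 1, 8.845% and 8.145% in IP 3 and IP 4, and 15.2% to 18.2% in the Inputs. The length classes were set after the values were seen, and the part of length and of these reads in the results was not tested.

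**Figure D3:**
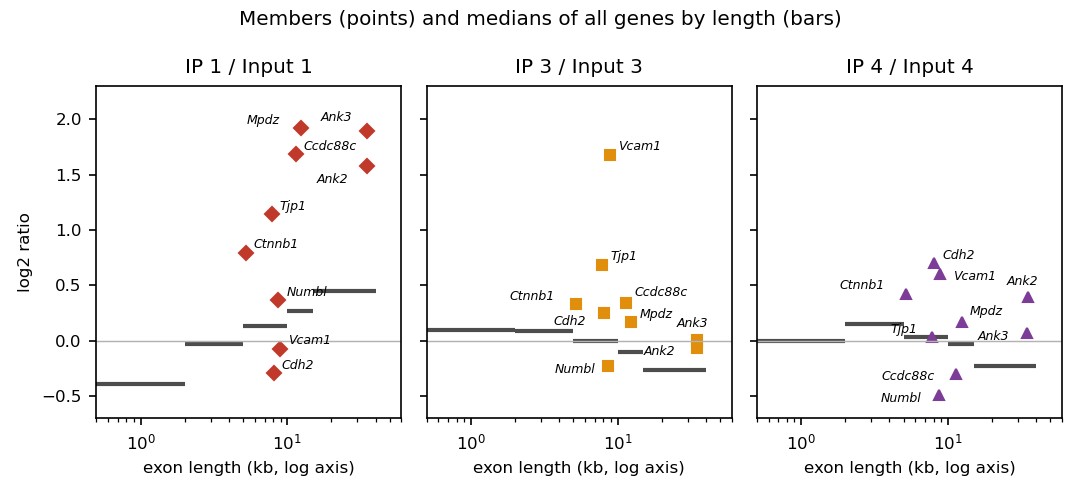
Log2 ratio of each IP library to the Input of its number against exon length (kb, log axis) for the 9 genes (points), with the medians of all tested genes in 5 length classes (bars; the last class, over 15 kb, is drawn to 40 kb). In IP 1 the class medians rise from -0.39 to 0.45, and Ank2, Ank3, Mpdz and Ccdc88c lie above them.

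Per kilobase of exon, Ctnnb1 was by far the most abundant of the 9 in both groups. Its level was 95.2 ± 11.3 CPM per kb in IP and 68.1 ± 5.01 in Input, with no overlap with the next gene in either group. In Input, Tjp1 followed with 12.6 ± 1.38 CPM per kb, then Ank3 (11.9 ± 1.37), Cdh2 (9.96 ± 1.48) and Ank2 (8.54 ± 0.688), and each of these neighbours overlapped in range. A lower set came after a gap: Numbl (3.515 ± 0.830), Ccdc88c (2.42 ± 0.618), Mpdz (2.28 ± 0.380) and Vcam1 (1.74 ± 0.728 CPM per kb), again with overlapping neighbours. In IP the same genes made up the upper and the lower set, and within a set the neighbours overlapped. Ank3 there had 22.8 ± 17.0 CPM per kb and a range of 11.3 to 42.35. Numbl moved from the top of the lower set in Input to the lowest place in IP (2.97 ± 0.851 CPM per kb), where Vcam1 had 3.53 ± 1.47. These lengths count every annotated exon once, so a gene that uses few of its exons appears too low.

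Some of the 9 genes were also set against a related gene in the same library, which removes the scaling of the libraries; 6 such pairs were compared by an exact two-sided permutation test, in which 3 against 4 libraries cannot give a p below 0.0571. The log2 ratio of Mpdz to Patj, the scaffold most like it, stood at 1.27 in IP 1 and at -0.74 in both IP 3 and IP 4, and at -1.27, -1.83, -0.98 and -0.92 in the Inputs. All IP libraries were above all Inputs, by a mean difference of 1.18 (exact permutation p = 0.0571, adjusted over the pairs 0.343), or 0.51 without IP 1. Patj itself had 54.7 ± 6.95 CPM in IP and 66.9 ± 8.06 in Input (adjusted p by edgeR = 0.457). The ratio of Ccdc88c to Ccdc88a, which encodes Girdin, had a mean difference of 0.72 (exact permutation p = 0.114, adjusted 0.343; 0.30 without IP 1), with -1.16 in IP 1, -2.47 and -2.38 in IP 3 and IP 4, and -3.14 to -2.44 in the Inputs. Ccdc88a was level between the groups, at 178 ± 18.7 and 178 ± 16.2 CPM. Numbl against Numb gave ratios of -0.15 in IP 1, -1.28 in IP 3, -1.31 in IP 4 and -0.68 to -0.25 in the Inputs. IP 3 and IP 4 were thus below all Inputs and IP 1 above them (mean difference -0.48, exact permutation p = 0.286, adjusted 0.571; -0.86 without IP 1). The ratio of Ank3 to Ank2 differed by 0.10 (exact permutation p = 0.629, adjusted 0.754), and by -0.07 without IP 1. That of Cdh2 to Cdh4, which encodes R-cadherin, differed by -0.0032 (exact permutation p = 0.914, adjusted 0.914), and by 0.42 without IP 1.

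Other genes of the same pathways were taken from 6 lists that also hold the 9 genes. Besides the 9, the lists held 133 tested genes, of which 7 rose and 2 fell (edgeR adjusted p under 0.05), with a median log2 fold of 0.36. Over all tested genes 3.64% rose and 2.16% fell, so these counts of called genes are near the background. At an unadjusted p under 0.05 by edgeR, 34 of the 133 were higher and 5 lower, against 13.3% and 9.4% of all tested genes. The fold was positive for 97 of the 133, against 9224 of the 17375 tested genes. Of 27 adherens junction genes 3 rose and 0 fell (median 0.31, and 0.14 without IP 1). At an unadjusted p 10 of them were higher and 0 lower, and 0 were lower by DESeq2 and voom. Arvcf, a catenin of the p120 family, rose from 14.2 ± 1.31 to 49.6 ± 16.6 CPM (log2 fold 1.81 ± 0.28 SE, adjusted p by edgeR = 0.0129), with 33.1, 49.3 and 66.3 CPM in IPs 1, 3 and 4. Cdh5, the cadherin of endothelium, rose by 3.66 ± 0.84 (SE, adjusted p by edgeR = 0.0356) from a low level of 0.495 CPM, with 13.3 CPM in IP 3 and 1.54 in IP 1. Plekha7, a binding partner of p120-catenin, named after its values were seen, rose by 1.26 ± 0.31 (SE, adjusted p by edgeR = 0.0424). Of 25 tight junction genes 1 rose and 0 fell (median 0.39). At an unadjusted p 7 of them were higher and 0 lower, and 0 were lower by DESeq2 and voom. The gene that rose was Amotl2, an angiomotin-like protein (log2 fold 1.84 ± 0.43 SE, adjusted p by edgeR = 0.0376). With the replicate block 0 of the 133 genes were called in either direction, and 0 without IP 4 or without any 1 Input. Without IP 1, 26 of 135 rose and 7 fell, with a median of 0.23, where 12.5% of all tested genes rose and 9.55% fell.

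Among 24 apical-basal polarity genes 2 rose and 1 fell (median log2 fold 0.36), where 3.64% of all tested genes rose and 2.16% fell. At an unadjusted p 9 of the 24 were higher and 1 lower, against 13.3% and 9.4% of all tested genes. Crb2, a Crumbs protein of the apical membrane, rose from 2.24 ± 0.716 to 10.3 ± 2.31 CPM (log2 fold 2.19 ± 0.48 SE, adjusted p by edgeR = 0.0301), and all 3 IP libraries (7.75, 10.7 and 12.3 CPM) were above all Inputs. Pard3b, a relative of the polarity protein Par3, named after its values were seen, rose by 2.13 ± 0.53 (SE, adjusted p by edgeR = 0.0451). Lin7a, a small PDZ protein that partners Crumbs complexes and is also synaptic, fell from 173 ± 19.9 to 78.2 ± 8.55 CPM (log2 fold -1.15 ± 0.19 SE, adjusted p by edgeR = 0.0147). Crb2 (adjusted p by edgeR = 0.163) and Lin7a (0.093) lost the call with the replicate block, as did Arvcf (0.0768), Cdh5 (0.235) and Amotl2 (0.147). The block fit also leaves out Input 2. The unpaired fit of numbers 1, 3 and 4, which is the fit without Input 2, called 0 of the pathway genes as well. The loss is thus not particular to the block. Of 17 integrin, ICAM and ERM genes 1 rose and 0 fell (median 0.44, and 0.66 without IP 1). At an unadjusted p 6 of them were higher and 0 lower, and 0 were lower by DESeq2 and voom. The gene that rose was Msn, moesin, a linker of membrane and actin (log2 fold 1.96 ± 0.49 SE, adjusted p by edgeR = 0.0459, and 0.177 with the replicate block). Its relative Ezr, ezrin, had 22.2, 116 and 99.0 CPM in IPs 1, 3 and 4 and 10.96 to 29.9 in Input (log2 fold 2.04, adjusted p by edgeR = 0.0526). Msn had 26.5, 98.8 and 90.0 CPM in the IP libraries and 10.9 to 31.5 in Input, so that IP 1 lay within the Input range for both, as it did for Vcam1.

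None of 19 ankyrin and spectrin genes was called in either direction by edgeR, DESeq2 or voom (median log2 fold 0.59). At an unadjusted p 4 were higher and 1 lower, against 13.3% and 9.4% of all tested genes. Without IP 1 the median turned to -0.15, and 2 of the 19 were called higher and 3 lower, where 12.5% and 9.55% of all tested genes were. Within number 1, however, 10 of the 19 were at least 2-fold higher in IP, against 1 in number 3 and 0 in number 4, where the shares of all tested genes were 19.4%, 20.1% and 18.8%. The list holds many long genes. For all genes over 15 kb of exons these shares were 32.0%, 8.31% and 7.56%, and for those of 10 to 15 kb 22.4%, 12.6% and 11.2%. The part of length in the count of this list was not tested. Sptbn1, a beta-spectrin, had 3277 CPM in IP 1, 492 and 680.5 in IP 3 and IP 4 and 738 to 958 in the Inputs. Epb41l1, a protein 4.1 of neurons, had 2464, 338 and 355 CPM against 438 to 556. Both were thus below all Inputs in IP 3 and IP 4 and far above them in IP 1; they were named after their values were seen. Add3, an adducin (log2 fold 0.60, adjusted p by edgeR = 0.0856), and L1cam, an ankyrin-binding adhesion molecule (0.53, adjusted p by edgeR = 0.125), had the smallest p of the list. Of 33 genes of the Ccdc88, Dishevelled and beta-catenin pathway 0 rose (7 at an unadjusted p, 3 by DESeq2, 0 by voom) and 1 fell, with a median of 0.43. Over all tested genes 3.64% rose and 2.16% fell, and 13.3% were higher at an unadjusted p. Tcf7l2, a transcription factor that works with beta-catenin, fell from 346 ± 51.7 to 178 ± 42.9 CPM (log2 fold -0.96 ± 0.22 SE, adjusted p by edgeR = 0.0355, and 0.163 with the replicate block). Gsk3b, the kinase that marks beta-catenin for breakdown, had a log2 fold of -0.64 ± 0.18 (SE, adjusted p by edgeR = 0.0727).

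**Figure D4:**
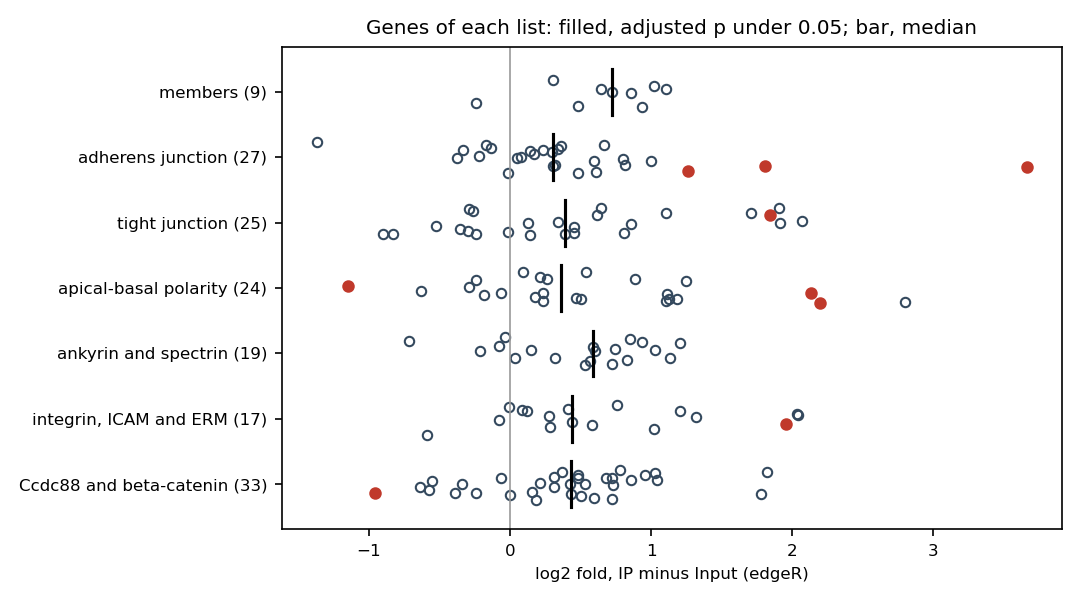
Fitted log2 fold (IP minus Input) of each tested gene in the set of 9 and in the 6 pathway lists (number of genes in brackets); filled points have an edgeR adjusted p under 0.05 and bars are medians. Filled points are absent among the 9 genes and the ankyrin and spectrin list, and the list medians lie between 0.31 and 0.59; without IP 1 (not drawn) that of the ankyrin and spectrin list is -0.15.

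The genes most like each of the 9 in pattern were found by the smallest root mean square difference (RMS) of centred log2 CPM over the 7 libraries, among 11544 named genes of at least 5 CPM on average. They were Bcr (0.0755) and Cacna1i (0.101) for Ank3, and Mon2 (0.0723) and Acaca (0.0831) for Ank2. Bcr had 490 CPM in IP 1 and 133 to 181 in all other libraries, so it too was by far highest in IP 1. The nearest to Mpdz were Nrbp2 (0.150) and Odf2 (0.153), to Ccdc88c Lyst (0.138) and Begain (0.155), and to Tjp1 Ubn1 (0.116) and Brd1 (0.121). For Ctnnb1 they were Yme1l1 (0.0672) and Zfr (0.0744), for Cdh2 Zyx (0.0442) and Hspbp1 (0.0805), and for Numbl Atp6v0a2 (0.0832) and Dpysl3 (0.104). For Vcam1 the nearest were Plod1 (0.156), little farther than the nearest of Mpdz, and Tmem106c (0.183). Plod1 had 13.2 CPM in IP 1, 29.7 in IP 3, 31.8 in IP 4 and 7.31 to 21.2 in the Inputs. These likenesses rest on 7 libraries and are given as a description.

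The ventricular wall and the homogenate hold other cells that express some of the 9 genes, and their markers were summed in each library. All 12 ependymal markers rose, led in level by Rsph1 and Ccdc153; 6 of the 12 were called with the replicate block and 0 by voom. The 13 neuron markers, led by Snap25 and Syt1, summed to 10199, 9351 and 8326 CPM in IPs 1, 3 and 4 and to 11170 to 13972 in the Inputs, and 1 of them, Map2, fell. The 10 astrocyte markers, led by Slc1a2 and Aldoc, summed to 2410 to 3177 CPM in IP and 3142 to 3390 in Input, and 1 of them, Gfap, rose. The lower sum did not hold for most of its genes. The log2 fold was positive for 7 of the 10, with a median of 0.50, against 9224 of 17375 tested genes and a median of 0.06. The 9 oligodendrocyte markers summed to 2633 to 4363 CPM in IP and 4229 to 5822 in Input, and Mbp and Mobp fell. Of the 9 microglia markers none was called by edgeR, DESeq2 or voom (1 higher and 0 lower at an unadjusted p), and their sum was 93.7 to 177 CPM in IP and 90.8 to 141 in Input. Of the 9 choroid plexus markers, led by Ttr and Kl, none was called by edgeR, DESeq2 or voom (1 higher and 0 lower at an unadjusted p), with sums of 1293, 2999 and 3089 CPM in IPs 1, 3 and 4 and 2302 to 4156 in Input. For 6 of these 9 markers the log2 fold was positive (median 0.30). Endothelial markers, led by Slco1a4 and Egfl7, had 1 gene that rose, Cdh5, and those of progenitors and neuroblasts, led by Dcx and Sox11, 1 that fell, Dcx. For 7 of the 11 progenitor and neuroblast markers the log2 fold was positive (median 0.40). With the replicate block the calls of Map2, Gfap, Mbp, Mobp, Cdh5 and Dcx were lost (adjusted p by edgeR from 0.0913 to 0.235). No marker of any of these lists was at 0 in all libraries. Ank3 and Ank2 are also abundant in neurons. The neuron sum in IP 1 was below that of every Input, but Snap25 alone made up 6026 CPM of it. Within number 1 the median log2 ratio of the 13 neuron markers was -0.025. Of these 13, 2 were at least 2-fold higher in IP 1, against 19.4% of all tested genes. The part of neurons in the ankyrin levels was not tested.

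**Figure D5:**
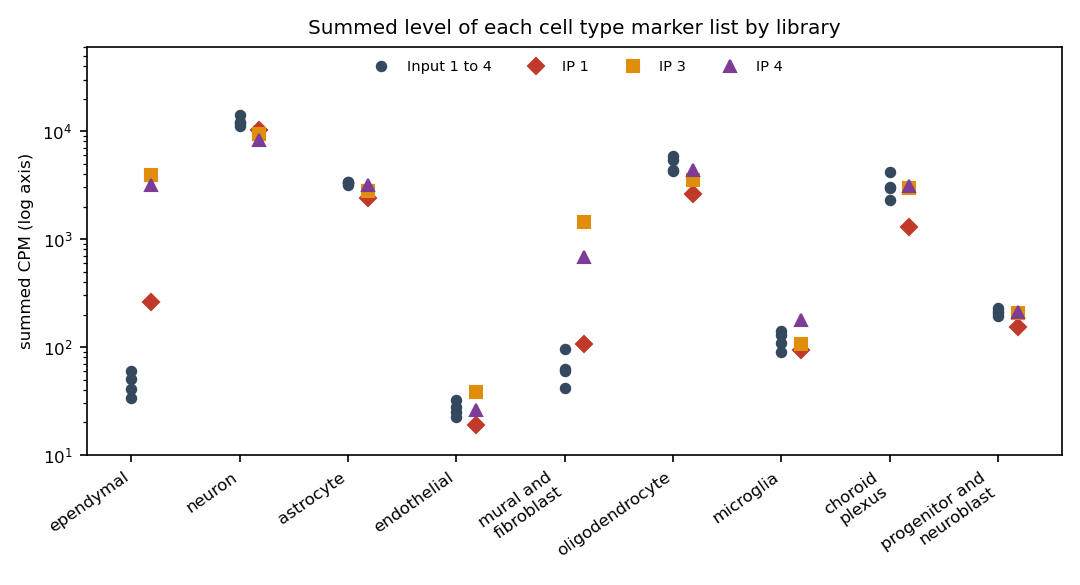
Summed CPM (TMM scale, log axis) of the markers of 9 cell types in the 4 Inputs (circles) and in IP 1 (diamond), IP 3 (square) and IP 4 (triangle). The ependymal sum is 260 CPM in IP 1 against 3898 and 3164 in IP 3 and IP 4, and the mural and fibroblast and the endothelial sums have the same order over the IP libraries.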

How the data were processed

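The authors deposited 1 table of raw counts for each library, by gene symbol and without normalisation. STAR 2.0.0e, HTSeq and the build mm10 are named per the submitters' processing notes; which settings, strand mode and kit were used: not given in the sources used here. Lines that name no gene were left out. They held 40.1% to 52.1% of all counts of a library. The filter was filterByExpr (minimum count 10, total 15; edgeR 4.0.16, R 4.3.3). Kept genes were scaled with TMM factors and tested between the 3 IP and 4 Input libraries with the quasi-likelihood test (glmQLFit with robust moderation, group as the only term), with Benjamini-Hochberg adjustment over 17375 genes and a threshold of 0.05. SE is the fold divided by the root of the test statistic. The fit was tested on simulated data with 200 changed genes and the same spread in all libraries. These data held no library that stood apart, so the test does not show how the fit handles one like IP 1. Alternatives used DESeq2 1.42.0 and limma 3.58.1 (voom), other scalings and filters, and fewer libraries.

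The 9 genes and the lists were chosen with earlier results of these data known. The text names the 9 genes, Dcdc2a and Foxj1, their related genes, the 2 genes of each pathway list with the smallest p and any called gene against its list's majority, the 2 most abundant markers of each cell type, and the 2 genes most like each of the 9; some genes that this rule names, and 1 of the 6 ratios, are not reported here. Gene positions and lengths are from GENCODE M21 (the assembly of mm10, 1-based). Of the list entries, 12 were matched through a RefSeq synonym and Sptbn5 was not matched. The replicate numbers were taken as pairing the libraries because the labels put the IP and Input of a number on the same lane (lanes 4, 2 and 3 for numbers 1, 3 and 4). Across genes, which are no independent replicates, the deviations of an IP and the Input of its number from their group means had correlations of 0.032, 0.043 and 0.026, more than that IP had with the other Inputs. No 2 libraries held identical values.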

Additional observations from a re-analysis of the deposited data

Results flagged for a closer look

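Ank3 in Input 4 had 485 CPM, against 383 to 397 in the other Inputs. The gap to the nearest Input, as a share of the range (0.866), exceeded Dixon's 95% critical value for 4 libraries. Of 36 sets of Input values tested in this way (the 9 genes, their related genes, the pairs' ratios and the summed lists), 1 was flagged, and chance flags about 1 in 20. The IP libraries, 3 in number, were not tested for this.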

How the results depend on the processing

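Over 16 alternatives each, the fitted folds of the 9 genes kept their direction in all 144 cases, and the sole change of a call was that of Vcam1 without IP 1. The unpaired fit of numbers 1, 3 and 4 uses the same libraries as the fit without Input 2, so the same fit is counted under both names. Counts of called genes moved far more than these folds. Over all genes, 633 higher and 376 lower became 1396 and 962 with DESeq2, 75 and 189 with limma voom, 92 and 29 with the replicate block, and 12 and 24 in the unpaired fit of numbers 1, 3 and 4. Leaving out 1 library gave 4 to 2259 higher and 16 to 1724 lower, the highest without IP 1. Of the 9 genes, 0 to 1 were then higher. The 7 higher and 2 lower of the 133 pathway genes became 16 higher with DESeq2, 1 and 1 with voom, 0 and 0 with the replicate block and in the unpaired fit, 1 lower with total counts, and, without 1 library, 0 to 26 higher and 0 to 7 lower; the 26 and 7 were without IP 1, and without IP 4 or any 1 Input 0 were called. The sign of Ccdc88a turned with total counts (0.042) and ranged from -0.060 to 0.083 without 1 library, that of Cdh4 from -0.036 to 0.48, of Aldoc from -0.13 to 0.38 and of Slco1a4 from -0.37 to 0.10. The median of the ankyrin and spectrin genes ranged from -0.15 to 0.79. The Ank3 to Ank2 difference ranged from -0.071 to 0.18 and that of Cdh2 to Cdh4 from -0.35 to 0.42. The causes were not tested.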
